A study of Erythranthe pardalis x Erythranthe guttata and Erythranthe pardalis with 20 samples.

Results

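IRX1 (Migut.M01014), IRX3 (Migut.J01374) and IRX5 (Migut.D00465) are the Mimulus homologues of the Arabidopsis genes for the secondary wall cellulose synthases CESA8, CESA7 and CESA4. They are 3 of the 28140 genes listed in each library, chosen by identifier, and all 3 were among the 20242 genes that passed the filter on low counts (CPM, counts scaled to a library's total, above 1 in at least 3 libraries). The study had named them as members of a cluster of co-expressed genes with its highest level at 6 days after pollination (DAP) in these same libraries. Their 6 DAP maximum is therefore a description here and no independent evidence of that pattern.

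RNA was sequenced from unpollinated ovules of Mimulus pardalis line SEC39 (0 DAP, 5 libraries) and from whole seeds of these plants crossed with pollen of M. guttatus line CSS4, at 2 DAP (4 libraries), 4 DAP (3 libraries), 6 DAP (4 libraries) and 8 DAP (4 libraries). Both lines were inbred, no gene was altered in either, all plants shared 1 growth chamber setting, and all seeds came from 1 direction of the cross. Seeds were taken off the fruit by hand and, by the study's methods, may carry some placental tissue, and each library is 1 pool. The comparison with ovules joins fertilization, the paternal genome and age, which cannot be told apart. Total counts ran from 7588155 to 16529554 per library.

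Cellulose of plant walls is made at the plasma membrane by complexes of cellulose synthase catalytic subunits, which draw glucan chains out into the wall. In Arabidopsis the complexes that build thickened secondary walls, as in xylem vessels and fibres, hold the 3 subunits encoded by IRX1, IRX3 and IRX5, and loss of any of them leaves vessels with thin walls that collapse, hence the name irregular xylem. Primary walls are made by complexes of other members of the family. In seeds, thickened walls are known from coat layers as well as from vascular strands.

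All 3 genes were at their lowest in ovules, were far apart between libraries at 2 DAP, stood low again at 4 DAP, reached their highest level at 6 DAP and lay between these at 8 DAP. Levels are given as normalized CPM, CPM on a library's total after TMM scaling, in the order of replicates 1 to 4 (1 to 5 for ovules). Since the genes differ in length, a level is compared between libraries of 1 gene and not between genes. In whole seeds, fewer cells of a type and less RNA per cell cannot be told apart.

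**Figure D1:**
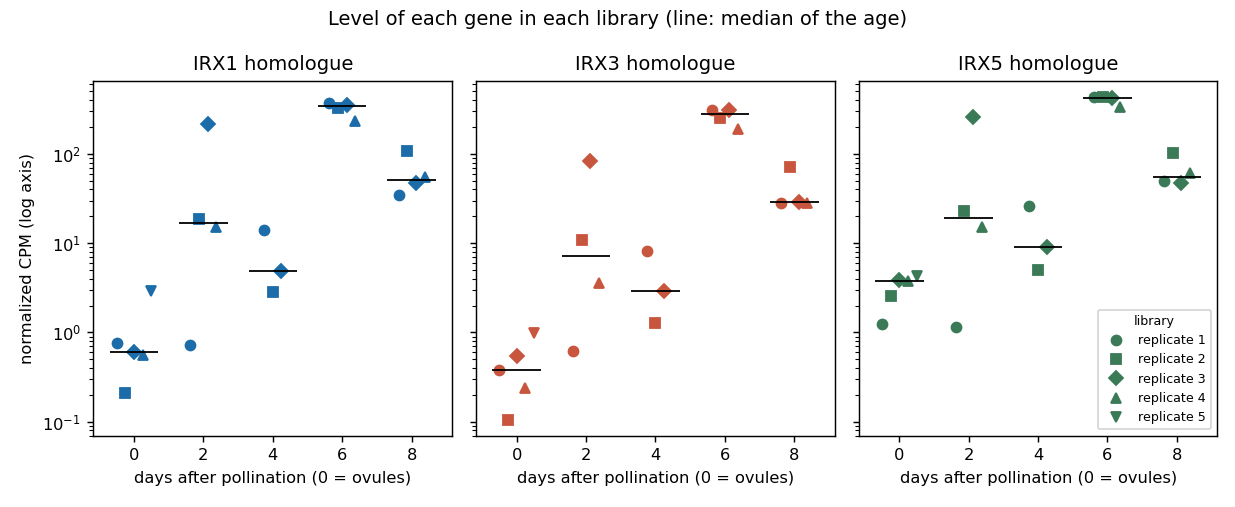
Normalized CPM of each gene (log axis) against days after pollination, with 1 point per library, a marker shape per replicate number and a line at the median of each age. At 2 DAP replicate 3 (diamond) is the highest library of its age for every gene and lies below every 6 DAP library, and replicate 1 (circle) lies within the range of the ovules for IRX1 and IRX3 and below it for IRX5, while the 6 DAP libraries lie within 1.62-fold of each other for every gene.

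IRX1 was at 0.760, 0.211, 0.609, 0.554 and 2.88 normalized CPM in the 5 ovule libraries, from 8, 4, 10, 7 and 26 counts. At 2 DAP it was at 0.726, 18.8, 217 and 15.2, and at 4 DAP at 14.04, 2.85 and 4.91. At 6 DAP it was at 371, 329.7, 357 and 235, and at 8 DAP at 34.7, 107, 47.6 and 55.0. Every 6 DAP library was above every 4 DAP and every 8 DAP library, whereas 2 DAP replicate 1 lay among the ovules and 2 DAP replicate 3 within 1.08-fold of the lowest 6 DAP library. On CPM without TMM scaling those 2 libraries were further apart, at 155 and 245.

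IRX3 was at 0.380, 0.105, 0.548, 0.237 and 0.997 in ovules, from 4, 2, 9, 3 and 9 counts, and at 0.622, 10.8, 82.6 and 3.61 at 2 DAP. It was at 8.21, 1.26 and 2.91 at 4 DAP. Levels at 6 DAP were 307, 255, 311 and 192, and those at 8 DAP 28.5, 70.5, 29.2 and 28.5. The order of ages was that of IRX1, and 3 of the 4 libraries at 8 DAP lay within 28.5 to 29.2 with replicate 2 apart.

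IRX5 was at 1.23, 2.58, 3.84, 3.80 and 4.32 in ovules, from 13, 49, 63, 48 and 39 counts, and at 1.14, 22.8, 262 and 14.98 at 2 DAP. At 4 DAP it was at 25.8, 5.03 and 8.96. It was at 431.9, 430.1, 426 and 334 at 6 DAP, and at 49.6, 102, 46.9 and 60.9 at 8 DAP. Its level in 2 DAP replicate 1 was below that of every ovule library, and 3 of the 4 libraries at 6 DAP lay within 426 to 431.9.

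Means with SD show the same order. IRX1 averaged 1.003 ± 1.07 in ovules (SD, n = 5), 62.9 ± 103 in seeds of 2 DAP (n = 4) and 7.26 ± 5.96 in those of 4 DAP (n = 3), and then 323 ± 61.3 and 61.0 ± 31.7 in seeds of 6 and of 8 DAP (n = 4 each). IRX3 averaged 0.454 ± 0.346, 24.4 ± 39.0, 4.12 ± 3.63, 266 ± 55.5 and 39.2 ± 20.9 at the same ages and n. IRX5 averaged 3.16 ± 1.25, 75.3 ± 125, 13.2 ± 11.01, 405.4 ± 47.9 and 64.8 ± 25.5. The SD exceeded the mean at 2 DAP for all 3, and was 11.8% to 20.8% of it at 6 DAP. Some means rested on 1 library. Without 2 DAP replicate 3 the 2 DAP means were 11.6, 5.02 and 12.98 for IRX1, IRX3 and IRX5, and without 4 DAP replicate 1 the 4 DAP means were 3.88, 2.08 and 7.0. Without ovule replicate 5 the ovule mean of IRX1 was 0.534. No other mean moved by over 1.5 times when 1 library was left out.

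Each of the 3 genes changed over the 4 transitions in a joint test (edgeR quasi-likelihood test, 4 degrees of freedom, adjusted over all genes tested). Adjusted p was 1.51e-05 for IRX1, 1.7e-06 for IRX3 and 2.3e-05 for IRX5, in a test that called 50.3% of all genes. The steps that passed the threshold of 0.01 were 2 against 0 DAP, 6 against 4 DAP and 8 against 0 DAP, all upward, for all 3 genes. Fold changes below are on the log2 scale, later age over earlier, with the standard error derived from the F statistic.

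**Figure D2:**
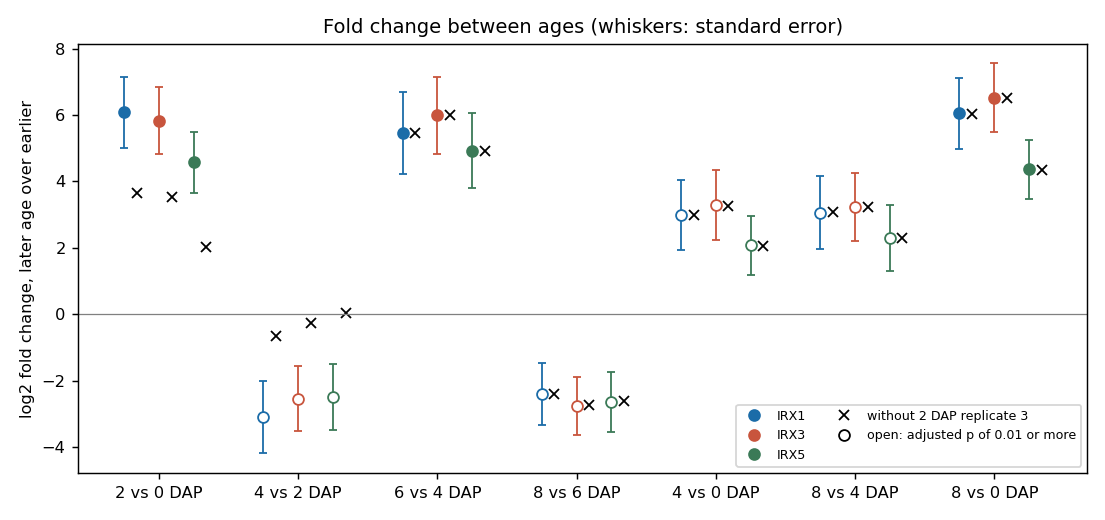
The log2 fold change of each gene for 7 pairs of ages, later over earlier, with whiskers of 1 standard error. Circles are filled where the adjusted p was under 0.01, and crosses give the value without 2 DAP replicate 3, which changed 2 against 0 and 4 against 2 DAP (for IRX1, 3.65 in place of 6.09 and -0.67 in place of -3.10) and left the others nearly in place.

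At 2 DAP against ovules, IRX1 was higher by 6.09 ± 1.07 (adjusted p = 0.000213), IRX3 by 5.83 ± 1.02 (adjusted p = 0.000211) and IRX5 by 4.57 ± 0.91 (adjusted p = 0.000705) in edgeR. All 3 passed upward, beside 11.8% of all genes. The groups overlapped for all 3 genes, because replicate 1 lay within or below the range of the ovules. Without 2 DAP replicate 3 the values were 3.65, 3.53 and 2.03, with adjusted p of 0.00159, 0.00173 and 0.0177, so that IRX5 no longer passed. Blocked on the maternal plant, none of them passed (adjusted p of 0.0568 for IRX1, 0.0684 for IRX3 and 0.12 for IRX5). Under this block ovule replicates 3 to 5 stand as plants of their own and say nothing of 0 DAP. The lost calls thus join the plant with fewer ovule libraries, which cannot be told apart.

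The deposited names number the libraries 1 to 20, and 2 DAP replicates 2 to 4 and ovule replicates 3 to 5 carry the numbers 15 to 20. Within those 6 libraries the 2 against 0 DAP values were 5.95 for IRX1 (adjusted p = 0.0251), 5.71 for IRX3 (adjusted p = 0.0258) and 4.55 for IRX5 (adjusted p = 0.0355). Within libraries 1 to 14 replicate 1, the lowest for each gene, is the sole 2 DAP library, so values there (0.76, 1.53 and -0.81) restate its level and are given without a test. Both subsets were chosen after seeing the data. What the numbers stand for is not given in the sources used here.

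At 4 against 2 DAP no member passed the test. The values were -3.10 ± 1.09 for IRX1 (adjusted p = 0.101), -2.55 ± 0.99 for IRX3 (adjusted p = 0.131) and -2.50 ± 0.999 for IRX5 (adjusted p = 0.144), in a comparison that called 0.178% of genes lower and 0.0198% higher at 4 DAP. Blocked on the maternal plant it called 372 genes in place of 40, and still none of the 3. Without 2 DAP replicate 3 the values were -0.67, -0.26 and 0.02. With a term for the library numbers 15 to 20 they were 1.26, 1.66 and -0.04.

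The largest step between successive seed ages was at 6 against 4 DAP. IRX3 rose by 6.00 ± 1.16 (adjusted p = 0.0013), IRX1 by 5.47 ± 1.23 (adjusted p = 0.00448) and IRX5 by 4.93 ± 1.13 (adjusted p = 0.00512), a fold of 63.8, 44.2 and 30.5. All 3 passed upward, beside 5.22% of all genes, and their libraries did not overlap, which held upward for 22.9% of all genes. Leaving out any 1 of the 3 libraries at 4 DAP kept each value between 4.54 and 6.98 but raised the adjusted p, to between 0.0123 and 0.0375 for IRX1 and IRX5. For IRX3 it was 0.013 without replicate 2, 0.0137 without replicate 3 and 0.00491 without replicate 1. Blocked on the maternal plant, adjusted p was 0.0159 for IRX1, 0.00763 for IRX3 and 0.021 for IRX5. The direction held in every one of these fits.

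At 8 against 6 DAP the values were -2.40 ± 0.94 for IRX1 (adjusted p = 0.0575), -2.76 ± 0.87 for IRX3 (adjusted p = 0.0222) and -2.64 ± 0.89 for IRX5 (adjusted p = 0.0312). None passed 0.01, while 6.77% of all genes passed downward. IRX3 and IRX5 did pass when 2 DAP replicate 3 was left out of the fit (adjusted p of 0.00226 and 0.00265), and likewise without 2 DAP replicate 1 (0.0048 and 0.00548), at nearly the same fold changes. Every 8 DAP library lay below every 6 DAP library for each gene, which held for 25.3% of all genes. Fitted on these 8 libraries alone, with no spread taken from 2 DAP, all 3 passed (adjusted p of 0.00022 for IRX1, 9.88e-05 for IRX3 and 8.68e-06 for IRX5), at -2.40, -2.76 and -2.64. That fit called far more genes than the main one, 3701 of 18426 downward. For the fits without a 2 DAP library no share over all genes is given.

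The 8 DAP level stayed above that of ovules, by 6.05 ± 1.07 for IRX1 (adjusted p = 0.000103), 6.52 ± 1.04 for IRX3 (adjusted p = 3.25e-05) and 4.36 ± 0.90 for IRX5 (adjusted p = 0.000513), with no overlap, which held for 19.1% of all genes. All 3 passed upward, beside 18.1% of all genes. Blocked on the maternal plant, adjusted p was 0.0185, 0.0136 and 0.0392. Against 4 DAP the 8 DAP values were 3.06 ± 1.09 for IRX1, 3.23 ± 1.02 for IRX3 and 2.29 ± 0.99 for IRX5 (adjusted p of 0.0322, 0.0169 and 0.0731, with 12.3% of all genes called higher). At 4 DAP against ovules they were 2.99 ± 1.04, 3.29 ± 1.05 and 2.07 ± 0.90 (adjusted p of 0.032, 0.02 and 0.0803, with 11.2% of all genes called higher), so neither of these comparisons passed for any member. Without 2 DAP replicate 3 both passed for IRX1 and IRX3, and 8 against 4 DAP passed for IRX5. Without 2 DAP replicate 1 both again passed for IRX1 and IRX3. For these fits too no share over all genes is given.

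The 2 DAP libraries differed most from each other. Replicate 3 held 2501 counts of IRX1, 953 of IRX3 and 3025 of IRX5, and replicate 1 held 14, 12 and 22 counts at a like depth (total counts of 16121733 in replicate 3 and 14532958 in replicate 1). Counting error alone puts IRX1 at 208 to 226 normalized CPM in replicate 3 and at 0.397 to 1.22 in replicate 1 (exact Poisson intervals of 95%, which cover counting error only). Between them replicate 2 lay at 16.2 to 21.6 and replicate 4 at 12.95 to 17.6. These intervals compare single libraries and not conditions.

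Replicate 3 was 299-fold above replicate 1 for IRX1, 133-fold for IRX3 and 229.8-fold for IRX5. On CPM without TMM scaling the gaps were 161-fold, 71.6-fold and 124-fold, since the scaling factor of replicate 3 (0.716) was the lowest of the 20 libraries and that of replicate 1 was 1.33. Against replicate 2, replicate 3 was 11.5-fold higher for IRX1, 7.63-fold for IRX3 and 11.5-fold for IRX5. Against replicate 4 it was 14.3-fold, 22.9-fold and 17.5-fold higher. Replicate 1 in turn lay 25.9-fold, 17.4-fold and 20-fold below replicate 2, and 20.9-fold, 5.8-fold and 13.1-fold below replicate 4, in the same order of genes. In fold, replicate 1 was thus further from replicate 2 than replicate 3 was, for each gene. Replicates 2 and 4 themselves were close for IRX1 (1.24-fold) and IRX5 (1.52-fold), and 3.00-fold apart for IRX3.

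Replicate 3 reached 67.1% of the 6 DAP mean for IRX1 and 64.7% for IRX5, and 31.0% for IRX3. The other 2 DAP libraries reached at most 5.81%, 5.63% and 4.07% of it. These shares rest on TMM scaling. On CPM without it, replicate 3 was at 155 for IRX1, 188 for IRX5 and 59.1 for IRX3. The lowest 6 DAP library was then at 245, 348 and 200. Among all genes tested, an SD of log2 level over the 2 DAP libraries as large as that of IRX1 was found in 0.138%, as large as that of IRX5 in 0.178% and as large as that of IRX3 in 0.262%. At 6 DAP the corresponding shares were 38%, 64.4% and 34.4%, so the members were among the most variable genes at 2 DAP and ordinary in this respect at 6 DAP. At 4 DAP they were 1.25%, 1.1% and 0.865%.

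All 3 members were at least 4-fold higher in replicate 3 than in each other 2 DAP library, which 1.83% of all genes were. Among the 1057 genes called higher at 6 than at 4 DAP this share was 17%, and among the 430 called lower it was 0.465%. Replicate 3 was the highest 2 DAP library for 64.1% of the genes called higher at 6 DAP and for 28.8% of all genes.

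**Figure D3:**
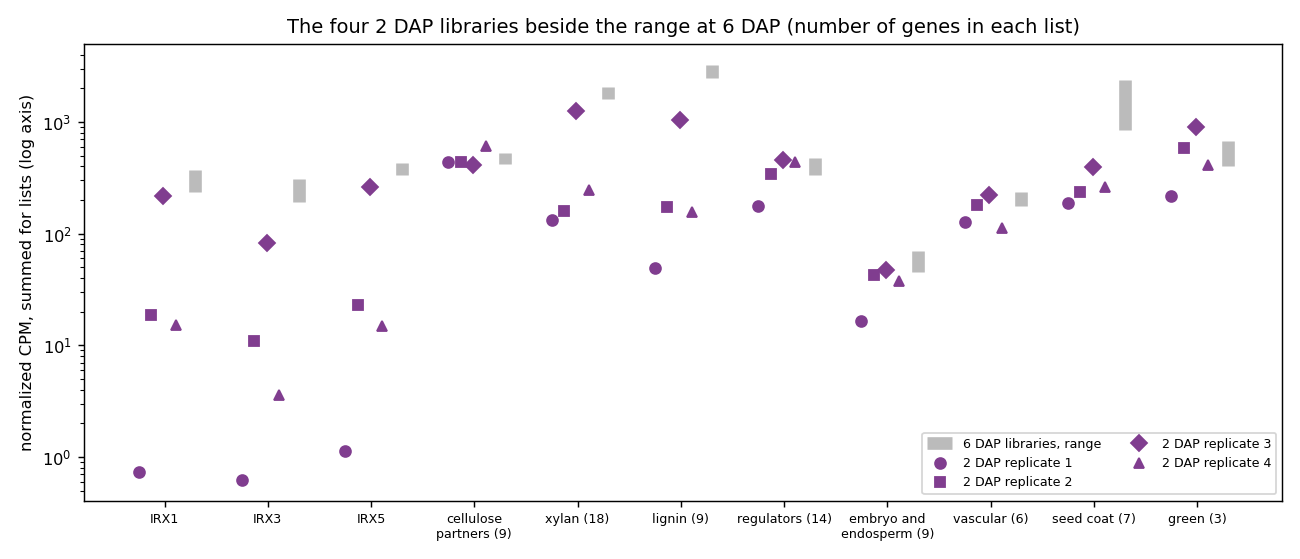
Normalized CPM (log axis) of each member, and summed over each list of genes, in the 4 libraries at 2 DAP (purple markers, 1 shape per replicate), with the range of the 6 DAP libraries as a grey bar. Replicate 3 (diamond) is the highest for the members and for the sum of every list but that of the partners of cellulose synthesis, with 1256 for xylan and 1038 for lignin. In the vascular list and in the green (photosynthesis) list only 1 gene each was highest there.

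Marker lists for other tissues were read in the same libraries. Replicate 3 was the highest 2 DAP library for 28.8% of all genes, beside which the counts below stand. Summed over 9 homologues of embryo and endosperm genes, the level was 16.6, 42.7, 47.2 and 37.8 normalized CPM in 2 DAP replicates 1 to 4. Replicate 3 was highest for 4 of 9, and 2 of them, ABI3 (Migut.D00511) and a ZOU homologue (Migut.B00361), were at 0 in all 4 libraries. For 6 vascular homologues the sum was 127, 179, 223 and 113, replicate 3 being highest for 1 of 6. XCP2 (Migut.N02040), a protease of xylem vessels in Arabidopsis, was at 4.46, 2.21, 2.95 and 3.52. For 7 seed coat homologues the sum was 190.1, 237, 396 and 262 (highest in replicate 3 for 3 of 7), and for 3 photosynthesis genes 219, 586, 893 and 412 (1 of 3). The range over ovules was 1.33 to 4.14, 156 to 260.2, 91.9 to 109.7 and 188 to 629 for the 4 lists in this order. The sum of each of these 4 lists was highest in replicate 3, but single genes weighed heavily in some of them. SUC2 (Migut.C01230) was the 1 vascular homologue highest there, at 78.15, 124, 181 and 63.7. LHCB6 (Migut.B00625) was the 1 photosynthesis gene, at 212, 571, 888 and 401. The L1L homologue Migut.M01289 was at 4.045, 15.5, 20.9 and 5.59. It is marked as of the members' cluster in the lists used here, whereas the paper's text puts it in another cluster, which peaks at 8 DAP. XCP2 was highest in replicate 1. The part of the other lists in the members' spread was not tested.

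The ratios among the 3 genes do not depend on the scaling of libraries, since they are taken within each library. They are ratios of counts, not of molecules, so only their change between libraries is read. Each log2 ratio was compared between successive ages by an exact two-sided permutation test, in a family of 12 (3 ratios by 4 steps) with Benjamini-Hochberg adjustment. With 3 against 4 libraries no p under 0.0286 can be reached, and no adjusted p in the family was below 0.114.

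**Figure D4:**
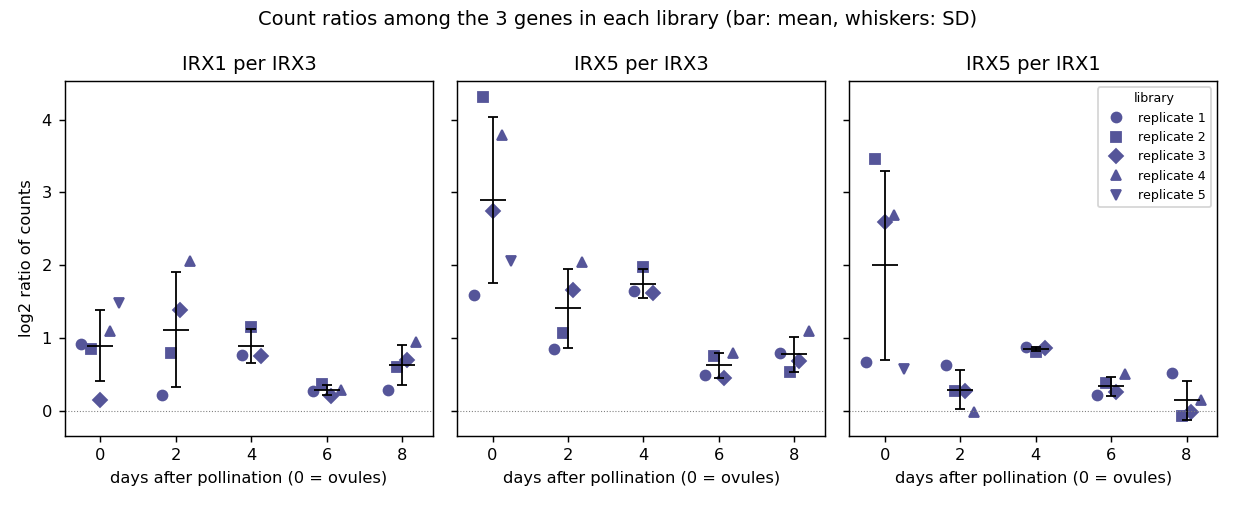
Log2 ratio of counts for each pair of genes against days after pollination, 1 point per library, with the mean (bar) and SD (whiskers) of each age. Both ratios to IRX3 are lower at 6 DAP than in every 4 DAP library, and IRX5 per IRX1 is spread widely in ovules and lies between 1.77 and 1.83 (linear) at 4 DAP.

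IRX1 per IRX3 was 2.00, 2.00, 1.11, 2.33 and 2.89 in ovules, where IRX3 had under 20 counts in every library. It was 1.17, 1.73, 2.62 and 4.20 in 2 DAP replicates 1 to 4 and 1.71, 2.26 and 1.69 at 4 DAP, with under 20 counts of a gene in 2 DAP replicate 1 (14 of IRX1 and 12 of IRX3) and in 4 DAP replicate 2 (19 of IRX3). It was 1.21, 1.29, 1.15 and 1.22 at 6 DAP, and 1.22, 1.52, 1.63 and 1.93 at 8 DAP. Its mean was lowest and its spread smallest at 6 DAP, with a log2 SD of 0.07 against 0.79 at 2 DAP, although ovule replicate 3 (1.11) lay below every 6 DAP library and 2 DAP replicate 1 (1.17) below 3 of the 4. At 6 against 4 DAP the mean log2 ratio was lower by 0.61 with no overlap of libraries (exact permutation p = 0.0286, adjusted p = 0.114), and at 8 against 6 DAP the difference was 0.35 (exact permutation p = 0.0857, adjusted p = 0.147).

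IRX5 per IRX3 was 3.25, 24.5, 7, 16 and 4.33 in ovules and 1.83, 2.11, 3.17 and 4.15 at 2 DAP. It was 3.14, 4.00 and 3.08 at 4 DAP, then 1.41, 1.69, 1.37 and 1.73 at 6 DAP, and 1.74, 1.45, 1.61 and 2.14 at 8 DAP. The difference of mean log2 ratios was -1.12 at 6 against 4 DAP, with no overlap (exact permutation p = 0.0286, adjusted p = 0.114). It was -1.49 at 2 against 0 DAP, where the libraries overlapped (exact permutation p = 0.0635, adjusted p = 0.127).

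IRX5 per IRX1 was 1.62, 12.2, 6.30, 6.86 and 1.5 in ovules, from few counts of IRX1. At 2 DAP it was 1.57, 1.21, 1.21 and 0.988, at 4 DAP 1.83, 1.77 and 1.83, at 6 DAP 1.16, 1.30, 1.19 and 1.42, and at 8 DAP 1.43, 0.954, 0.987 and 1.11. The 4 DAP libraries agreed to a log2 SD of 0.03 although the levels of the 2 genes in them spanned 4.93-fold for IRX1 and 5.12-fold for IRX5. Replicate 2 of 4 DAP held only 43 counts of IRX1 and 76 of IRX5. Counting error alone left its IRX5 share of the 3 genes' summed counts anywhere from 46.75% to 63.1% (Wilson interval). The agreement is closer than such counts can resolve, so no fixed ratio is read from it. At 6 against 4 DAP the difference was -0.51 with no overlap (exact permutation p = 0.0286, adjusted p = 0.114). At 4 against 2 DAP it was 0.56, also with no overlap (exact permutation p = 0.0571, adjusted p = 0.127).

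Read as shares of the 3 genes' summed counts, IRX5 took 52.0%, 89.1%, 76.8%, 82.8% and 52.7% in ovules, out of only 25 to 82 counts a library. In 2 DAP replicates 1 to 4 its share was 45.8%, 43.5%, 46.7% and 44.4%. It was 53.7%, 55.1% and 53.4% at 4 DAP, 38.9%, 42.4%, 38.9% and 43.9% at 6 DAP, and 44.0%, 36.5%, 37.9% and 42.2% at 8 DAP. At 2 DAP the share of IRX5 thus lay within 43.5% to 46.7% in libraries whose summed count ran from 48 to 6479. In replicate 1, with 48 counts, counting error alone left it anywhere from 32.6% to 59.7% (Wilson interval), so its likeness to the others is loosely set.

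The shares of IRX1 and IRX3 varied more among the 2 DAP libraries. The share of IRX1 was 29.2% (Wilson interval 18.2% to 43.2%) in replicate 1, 35.8% (31.9% to 39.9%) in replicate 2, 38.6% (37.4% to 39.8%) in replicate 3 and 44.9% (39.96% to 49.99%) in replicate 4. The share of IRX3 was 25% (14.9% to 38.8%), 20.7% (17.5% to 24.3%), 14.7% (13.9% to 15.6%) and 10.7% (7.95% to 14.2%) in the same libraries. These intervals cover counting error only, and separate pools of seeds can differ beyond it at any age. At 6 DAP, where the share of IRX3 was 27.6%, 25.1%, 28.4% and 25.3%, the intervals of replicates 1 (26.9% to 28.4%) and 2 (24.4% to 25.8%) did not overlap either. The IRX3 share of 2 DAP replicate 3 lay below that of each 6 DAP library.

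Other genes of wall formation were described by lists assembled from the tables that pair identifiers with Arabidopsis homologues. Many of them had been placed by the study in the same cluster as the members, which was made on these libraries, and their counts are no independent evidence of direction. Of 9 partners of cellulose synthesis outside that cluster, 6 were tested. At 2 against 0 DAP 5 of 6 rose (11.8% of all genes did), and at 6 against 4 DAP 1 rose (5.22% of all genes did). The 1 was Migut.D01624, a homologue of COBL4, a wall protein needed for secondary wall cellulose in Arabidopsis, by 4.67 (edgeR adjusted p = 0.00198). The other COBL4 homologue of the list, Migut.H00599, was not called there, with a value of 0.41 (edgeR adjusted p = 0.755). CESA6 (Migut.C00978), a subunit of the primary wall complex, was at 57.3 ± 20.5, 82.8 ± 15.3, 161 ± 22.1, 96.7 ± 26.0 and 254 ± 10.2 normalized CPM from 0 to 8 DAP (SD). Its highest mean was thus at 8 DAP, and at 8 against 6 DAP it rose by 1.39 (edgeR adjusted p = 0.000602, with 7.52% of all genes called higher), where the values of the members were negative. COBL1 (Migut.B00806), of the same family as COBL4, had the highest 6 DAP mean of the list, 200.4 ± 16.7.

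Of 18 xylan genes, 10 rose and none fell at 6 against 4 DAP (5.22% of all genes rose), with a median log2 fold change of 3.22 beside -0.001 over all genes tested, and 9 fell (6.77% of all genes did) and 1 rose, the IRX15-L homologue Migut.B00370 outside the cluster, at 8 against 6 DAP. All 10 that rose were among the 14 in the study's cluster. IRX15-L (Migut.L00176), needed for normal xylan in Arabidopsis, had the highest 6 DAP mean, 431 ± 90.0 normalized CPM, and was at 0.104, 21.8, 436 and 23.9 in 2 DAP replicates 1 to 4. The homologues outside the cluster went the other way after pollination, with 3 of 4 lower at 2 DAP than in ovules (6.46% of all genes were). Among them was the GUX1 homologue Migut.H00742, at 1.16 ± 0.80 at 2 DAP and 19.6 ± 7.43 in ovules. The GUX1 homologue in the cluster, Migut.L00898, rose at 2 against 0 DAP, by 4.42 (edgeR adjusted p = 0.00379), and at 6 against 4 DAP, by 5.75 (edgeR adjusted p = 0.00368). At 2 against 0 DAP 9 of 18 rose (11.8% of all genes did), and 2 did without 2 DAP replicate 3. For this list and those below, no share over all genes is given for the fit without that library.

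Of 9 lignin genes, 7 rose at 6 against 4 DAP (median 5.87, with 5.22% of all genes called higher), 5 fell at 8 against 6 DAP (6.77% of all genes did) and none passed the other way in either step. Without 2 DAP replicate 3 it was 8 that fell. LAC17 (Migut.J00316), a laccase that joins lignin units in Arabidopsis, averaged 1002 ± 194 normalized CPM at 6 DAP and 4.55 ± 2.10 at 4 DAP. All 9 rose at 2 against 0 DAP (11.8% of all genes did), and 4 did without 2 DAP replicate 3. Replicate 3 was the highest 2 DAP library for 9 of 9 lignin genes and 13 of 18 xylan genes, beside 28.8% of all genes and 64.1% of those called higher at 6 than at 4 DAP.

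Of 14 regulators of secondary wall formation, 3 rose at 6 against 4 DAP (5.22% of all genes did) and 9 fell at 8 against 6 DAP (6.77% of all genes did), with none in the opposite direction. The highest 6 DAP mean, 111 ± 18.7 normalized CPM, belonged to the KNAT7 homologue Migut.A00907, which was outside the cluster and stood at 126 ± 4.77 at 4 DAP. VND7 (Migut.C01249), a switch of vessel formation in Arabidopsis, was at 6.19 ± 4.01 in ovules and between 0.311 and 0.884 on average at every seed age. It went against the majority of its list at 2 against 0 DAP, with a value of -2.82 (edgeR adjusted p = 0.00802). In that comparison 8 regulators rose (11.8% of all genes did) and VND7 alone fell (6.46% of all genes did). Without 2 DAP replicate 3 it was 5 that rose and none that fell.

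Over the 20 libraries, the profiles of the members (log2 normalized CPM with a prior count of 2) were close to each other. As a description across libraries that share ages and scaling, Pearson's r was 0.99 between IRX1 and IRX3, 0.98 between IRX5 and IRX3 and 0.98 between IRX5 and IRX1. IRX3 ranked 1 of 20241 genes in likeness to IRX1, and IRX1 likewise ranked 1 to IRX3. IRX5 ranked 3 in likeness to IRX3 and 5 in likeness to IRX1, and without 2 DAP replicate 3 these ranks were unchanged.

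The 10 other genes most like the mean profile of the 3 had r between 0.97 and 0.98. The first was LAC17 (Migut.J00316), followed by IRX15-L (Migut.L00176), Migut.M01442, an HXXXD-type acyl-transferase (Migut.J00863), a GDSL-like lipase (Migut.H00518), LAC4 (Migut.F01429), Migut.N00852, a pectin methylesterase inhibitor (Migut.A00120), a DUF1218 protein (Migut.M00860) and tubulin TUA2 (Migut.B00472). LAC17, IRX15-L and LAC4 were also in the lists above. The choice used 2 DAP replicate 3, in which the members were highest of their age, so the high level of these genes in it is part of the choice (28.8% of all genes were highest there). TUA2, for example, was at 93.5, 325, 848.6 and 154 normalized CPM in 2 DAP replicates 1 to 4. By Spearman's rho 3 of the 10 were again among the first 10, and without 2 DAP replicate 3 it was 9 of the 10.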

How the data were processed

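RNA from ovules and whole hybrid seeds was sequenced in 20 strand-specific paired-end libraries. The authors trimmed reads with Trimmomatic, used STAR to map them onto a pseudo-reference of each parent, retained uniquely mapped proper pairs and deposited raw counts per gene (featureCounts, Phytozome v2.0 annotation), without normalization. Versions of these tools are not given in the sources used here.

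The deposited counts were fitted here with edgeR 4.0.16 (limma 3.58.1, R 4.3.3), as described in the report, with robust quasi-likelihood and 1 coefficient per age. Adjustment was by Benjamini and Hochberg over 20242 genes at 0.01. DESeq2 1.42.0 was an alternative. For log2 ratios and their tests 0.5 was added to each count, while linear ratios were taken from the counts as deposited. Python 3.11.15, numpy 2.4.6, pandas 2.3.3, scipy and matplotlib made tables and plots. The fit was checked on simulated data with genes changed at 6 DAP. Against 4 DAP it called 2.99% of those changed 2-fold, 46.3% of those changed 4-fold and 78.8% of those changed 8-fold. It called 0 unchanged genes. Changes of these sizes can therefore be missed, and an uncalled step is not read as no change.

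Ages and replicate numbers came from the labels, and maternal plants from the study's description. Seeds of 1 plant at several ages are paired by it. Residuals of libraries from 1 plant correlated with a median of 0.0107 over 28 pairs, against -0.0104 for different plants. Ovule replicates 3 to 5 are pools that stood as plants of their own, and under this block say nothing of 0 DAP. The labels describe each replicate as pooled from different plants, which differs from the paper, so the pairing is uncertain, and p-values measure the spread between these pools. The closest replicates differed by more than sampling noise (chi-square per degree of freedom of at least 5.53), so none was merged.

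Besides the members, the genes named are those of lists of wall and marker genes (at most 4 a list, the highest at 6 DAP and those against the majority of the list) and the 10 most alike in profile. The members and the lists were chosen with earlier results of these data known. The GUX1 homologues, the IRX15-L homologue Migut.B00370, the COBL4 homologues, the L1L homologue, SUC2, LHCB6 and XCP2 were singled out after their values were seen. Homologues are best BLASTx matches to Arabidopsis given by the study.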

Additional observations from a re-analysis of the deposited data

Results flagged for a closer look

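Levels and count ratios of the members were examined in 24 groups of 4 or 5 libraries of 1 age. In 6 of them a library lay far from the others by Dixon's criterion at 95%, which chance gives in about 1 of 20 groups of normally distributed values. Levels entered on the linear scale, where a wide fold range alone can set the top library apart. The 6 are therefore not read as an excess over chance. Groups of 1 age share libraries and are not independent of each other.

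At 2 DAP, replicate 3 stood above the others for IRX1 (217 normalized CPM, the gap taking 0.916 of the range), for IRX3 (82.6, 0.875 of the range) and for IRX5 (262, 0.917 of the range). In ovules, replicate 5 stood apart for IRX1 with 2.88 normalized CPM, from 26 counts. At 6 DAP, replicate 4 was low for IRX5 (334), and it was the lowest 6 DAP library for IRX1 and IRX3 also. At 8 DAP, replicate 2 was high for IRX3 (70.5), and it was the highest 8 DAP library for IRX1 and IRX5 also.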

How the results depend on the processing

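Alternatives are those set with the tests, except the fits within libraries 1 to 14 and within libraries 15 to 20, chosen after seeing the data. Of 248 values of fold changes and joint tests under settings other than leaving out a library, 200 kept their direction and their side of the threshold, as did 457 of 480 with 1 library left out. The joint tests of all 3 genes kept their call throughout. No ratio difference was called under any setting, but at 4 against 2 and 6 against 4 DAP no exact test with a library left out could pass, so this says nothing of stability. Of 93 ratio differences with a library left out, 2 changed direction, both without 2 DAP replicate 4. Values below are log2 fold changes, and where no cause is given the cause was not tested. DESeq2 gave no p-value for IRX1 and IRX5 (16 values), which its filter on outlying counts withheld. The filter by expression, RLE scaling and total-count scaling changed no call of a member.

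With the maternal plant as replicate block, calls were lost at 2 against 0 DAP (IRX1 5.67, IRX3 5.34, IRX5 3.79), at 6 against 4 DAP (IRX1 5.77, IRX5 5.28) and at 8 against 0 DAP (6.43, 6.78 and 4.51). The block changed no other call of a member. In its comparisons with 0 DAP, ovule replicates 3 to 5 say nothing, so fewer ovule libraries and the plant cannot be told apart. With the title numbers as replicate block, IRX5 lost its calls at 2 against 0 DAP (4.06) and 6 against 4 DAP (4.91). These numbers share no stated plant, and libraries of 1 number correlated with a median of -0.0274. IRX5 also lost the call at 2 against 0 DAP with a term for library numbers (3.66) and with only the compared ages (4.49), and at 6 against 4 DAP with no filter (4.92). With the term for library numbers, 4 against 2 DAP turned positive for IRX1 (1.26) and IRX3 (1.66), calls were gained at 4 against 0 DAP (6.46 and 6.84), and IRX3 gained them at 8 against 6 DAP (-2.76) and 8 against 4 DAP (3.23).

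Within libraries 1 to 14 the 2 DAP arm is replicate 1 alone, its lowest library, which sets the values at 2 against 0 DAP (0.76, 1.53 and -0.81) and 4 against 2 DAP (3.30, 2.71 and 3.51). In the same libraries calls were gained at 8 against 6 DAP (-2.39, -2.75 and -2.63), 4 against 0 DAP (4.06, 4.25 and 2.70) and 8 against 4 DAP (3.08, 3.25 and 2.31), for IRX1, IRX3 and IRX5 in this order. Within libraries 15 to 20 the calls at 2 against 0 DAP were lost (5.95, 5.71 and 4.55), with fewer libraries. With only the compared ages, 8 against 6 DAP passed (-2.40, -2.76 and -2.64), as did 8 against 4 DAP for IRX1 (3.04) and IRX3 (3.20). The likelihood ratio test added IRX1 at 4 against 0 DAP (2.88), and IRX3 at 8 against 6 DAP (-2.76), 4 against 0 DAP (3.20) and 8 against 4 DAP (3.24). DESeq2 added IRX3 at 4 against 0 DAP (3.19) and 8 against 4 DAP (3.28).

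With 1 library left out, values ran from 5.09 to 6.38 (IRX1), 5.57 to 6.98 (IRX3) and 4.54 to 5.85 (IRX5) at 6 against 4 DAP. They ran from 2.07 to 3.81 (IRX1) and 2.29 to 3.71 (IRX3) at 4 against 0 DAP, from 2.65 to 3.97, 2.79 to 4.22 and 1.90 to 3.21 at 8 against 4 DAP, and from -3.21 to -2.63 (IRX3) and -2.95 to -2.50 (IRX5) at 8 against 6 DAP. For IRX5 they ran from 2.03 to 4.98 at 2 against 0 DAP and from -3.42 to 0.024 at 4 against 2 DAP. The ratio IRX1 per IRX3, not called, ran from -0.10 to 0.52 at 2 against 0 DAP and from -0.52 to 0.094 at 4 against 2 DAP.

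The number of genes called at 2 against 0 DAP was 3700, and 1351 with only the compared ages, 1066 within libraries 1 to 14 and 1341 within libraries 15 to 20. At 4 against 2 DAP it was 40, and 849 with DESeq2, 588 with the likelihood ratio test, 87 within libraries 1 to 14, 372 with the maternal plant as block, 1 with the term for library numbers, 3 on total counts and 0 with only the compared ages (edgeR, where 3893 had an unadjusted p under 0.05), and from 0 to 1249 with 1 library left out. At 6 against 4 DAP it was 1487, and 2264, 2294, 3182 and 4695 with DESeq2, the likelihood ratio test, libraries 1 to 14 and only the compared ages (718 to 1766 with 1 library left out). At 8 against 6 DAP it was 2892, and 4414 with DESeq2, 7499 within libraries 1 to 14, 5445 with the term for library numbers, 7522 with only the compared ages (1765 to 3848 with 1 left out). At 4 against 0 DAP it was 4280, and 2536 with only the compared ages and 2157 with the maternal plant as block (2692 to 4793). At 8 against 4 DAP it was 4666, and 8808 within libraries 1 to 14 and 8523 with only the compared ages (2836 to 5478). Of the 10 genes most alike in profile, 3 were shared when ranked by Spearman's rho. In ovules, 2 to 63 counts per gene and library limit every ratio.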
